A study of Mus musculus with 16 samples.

Results

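The genes described here encode the constitutive proteasome, the protease complex that degrades ubiquitin-tagged proteins. They were taken as every gene whose symbol on the array is Psma, Psmb, Psmc or Psmd followed by a number, without the inducible catalytic subunits Psmb8, Psmb9 and Psmb10. This rule found 35 of the 19505 genes with a symbol, each with a single probe set, and it used no measured value. They comprise 13 subunits of the core particle (7 of the alpha ring and 6 of the beta ring), 2 core subunits known for other tissues (Psma8 of testis and Psmb11 of thymus), 6 ATPases of the base, 3 further base subunits, 8 lid subunits and 3 assembly chaperones with Psmd symbols. Psmb5, the chymotrypsin-like catalytic subunit, was not analysed here.

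The arrays hold total RNA from hearts of wild-type C57BL/6 male mice aged 10 weeks. The left anterior descending coronary artery was ligated for 30 min and reperfused for 6, 24 or 72 h (4 heart samples per time). The 4 further heart samples are from sham surgery, with no time after surgery given for them. Since no time is given for sham, time after surgery and reperfusion injury cannot be told apart in the contrasts with it. All values are the deposited signals on a scale taken as log2, and the precision is limited by the 4 arrays per group.

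The core particle is a barrel of stacked rings. The outer alpha rings gate the entrance, and the inner beta rings carry the proteolytic sites. The regulatory particle sits on the barrel: the ATPases of its base unfold substrates and push them in, and its lid holds Psmd14, the deubiquitinase that removes the ubiquitin chain before entry. In heart muscle this system turns over sarcomeric and damaged proteins. In mammalian cells with impaired proteasomes, the transcription factor NRF1 (Nfe2l1) raises many subunit genes together through antioxidant response elements in their promoters.

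Because the subunits are known for joint regulation, the promoters of 5 members higher at 24 h are shown first. Psma5, Psma3, Psmd11 and Psmd14 had the largest changes at 24 h, and Psmc6 is shown because its promoter holds an antioxidant response element core; this choice was made with these values known. They are the 250 bases upstream of the annotated start in RefSeq on GRCm38.p6, all on the plus strand, and 28 of the 35 genes have such an entry. They lie at chr3:108256676-108256925 for Psma5, chr12:70974373-70974622 for Psma3, chr11:80428365-80428614 for Psmd11, chr2:61711444-61711693 for Psmd14 and chr14:45329574-45329823 for Psmc6. Capitals mark a CCAAT box (CCAAT on either strand) or the antioxidant response element core (TGACNNNGC on either strand).
Psma5: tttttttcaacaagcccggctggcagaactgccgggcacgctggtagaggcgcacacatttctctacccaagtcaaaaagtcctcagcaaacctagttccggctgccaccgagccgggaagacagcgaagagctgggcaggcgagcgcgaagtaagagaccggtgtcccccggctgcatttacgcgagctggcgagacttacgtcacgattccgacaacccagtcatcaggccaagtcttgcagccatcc
Psma3: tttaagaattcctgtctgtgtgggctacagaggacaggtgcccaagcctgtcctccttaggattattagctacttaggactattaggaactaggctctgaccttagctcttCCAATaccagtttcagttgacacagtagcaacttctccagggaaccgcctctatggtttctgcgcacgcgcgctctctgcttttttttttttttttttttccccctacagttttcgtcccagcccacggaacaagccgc
Psmd11: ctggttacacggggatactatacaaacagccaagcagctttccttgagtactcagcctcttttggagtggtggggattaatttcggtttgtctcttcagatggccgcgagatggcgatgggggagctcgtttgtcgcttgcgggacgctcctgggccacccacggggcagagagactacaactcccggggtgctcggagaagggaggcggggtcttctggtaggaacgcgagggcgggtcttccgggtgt
Psmd14: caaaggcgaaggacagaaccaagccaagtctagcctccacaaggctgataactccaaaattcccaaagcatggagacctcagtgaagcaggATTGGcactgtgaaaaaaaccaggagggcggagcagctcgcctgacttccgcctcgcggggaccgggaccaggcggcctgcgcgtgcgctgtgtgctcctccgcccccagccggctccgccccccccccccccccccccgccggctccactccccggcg
Psmc6: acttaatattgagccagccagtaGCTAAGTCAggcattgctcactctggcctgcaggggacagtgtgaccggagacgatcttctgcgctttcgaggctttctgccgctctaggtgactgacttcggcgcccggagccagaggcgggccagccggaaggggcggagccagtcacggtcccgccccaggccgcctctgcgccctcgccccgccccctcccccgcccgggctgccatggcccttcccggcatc
Psma3 has a CCAAT box 139 to 135 bases before the start, and Psmd14 has one on the minus strand at 159 to 155 bases. Psmc6 has an antioxidant response element core on the minus strand at 227 to 219 bases. The windows of Psma5 and Psmd11 hold none of the letters searched. Over the 28 promoters, the antioxidant response element core was found in 4 (Psmb6, Psmc6, Psmd12 and Psmd9), which is 14.3%, against 11.5% of the 27025 genes with an entry. The CCAAT box was found in 12, or 42.9%, against 37.5% of all genes. The heat shock element (GAANNTTCNNGAA, either strand) was found in 0 of 28 and in 0.514% of all genes. Each sequence shown holds at most 1 match, so no overlap of matches could occur in them. Of the 17 genes with a promoter entry that were higher at 24 h, 2 hold the antioxidant response element core and 8 the CCAAT box; of the 11 that were not called, 2 and 4 do.

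At 24 h of reperfusion, proteasome subunit genes rose in the core, the base and the lid. With limma and Benjamini-Hochberg adjustment over all 19505 genes at a threshold of 0.05, 19 of 35 (54.3%) were higher than in sham and 0 were lower, against 13.8% of all genes higher and 12.3% lower. Among the 8383 genes whose mean lies above background, 24.2% were higher and 20.8% lower. Background is 6.76, which 75% of the single array values of the negative control probe sets do not exceed. At an unadjusted p below 0.05, limma gave 28 members higher and 0 lower. The share of all genes at this unadjusted threshold was not counted, here or for the other comparisons. The members' median change was 0.44 on the log2 scale, against -0.07 for all genes, and 34 of the 35 changes lay above 0. All 4 arrays of the 24 h group lay above all 4 sham arrays for 24 members, which 12.9% of all genes did.

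On the deposited scale fewer members were called at 6 h and at 72 h. At 6 h, 3 members were higher and 0 lower (0 lower also at an unadjusted p below 0.05), against 7.92% of all genes higher and 12.3% lower, and the members' median change was 0.08. At 72 h, 3 were higher and 0 lower (1 lower at an unadjusted p below 0.05), against 11.5% and 10.3%, with a median change of 0.01. The difference between times was tested directly. From 6 to 24 h, 17 members were higher and 1 lower (17.3% and 10.9% of all genes), with a median change of 0.39. From 24 to 72 h, 0 were higher (also at an unadjusted p) and 15 lower (6.85% and 6.07% of all genes), with a median change of -0.39. Between 72 and 6 h, 1 was higher and 2 lower (17.5% and 13.1%). The contrasts with sham share the 4 sham arrays, and those with 24 h share the 24 h arrays. Of the 33 genes without Psma8 and Psmb11, 30 had their highest group mean at 24 h, 2 (Psma7 and Psmd10) at 72 h, 1 (Psmd9) at 6 h and 0 in sham. In the F test over the 4 groups 24 of 35 members passed, against 44.5% of all genes.

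**Figure D1:**
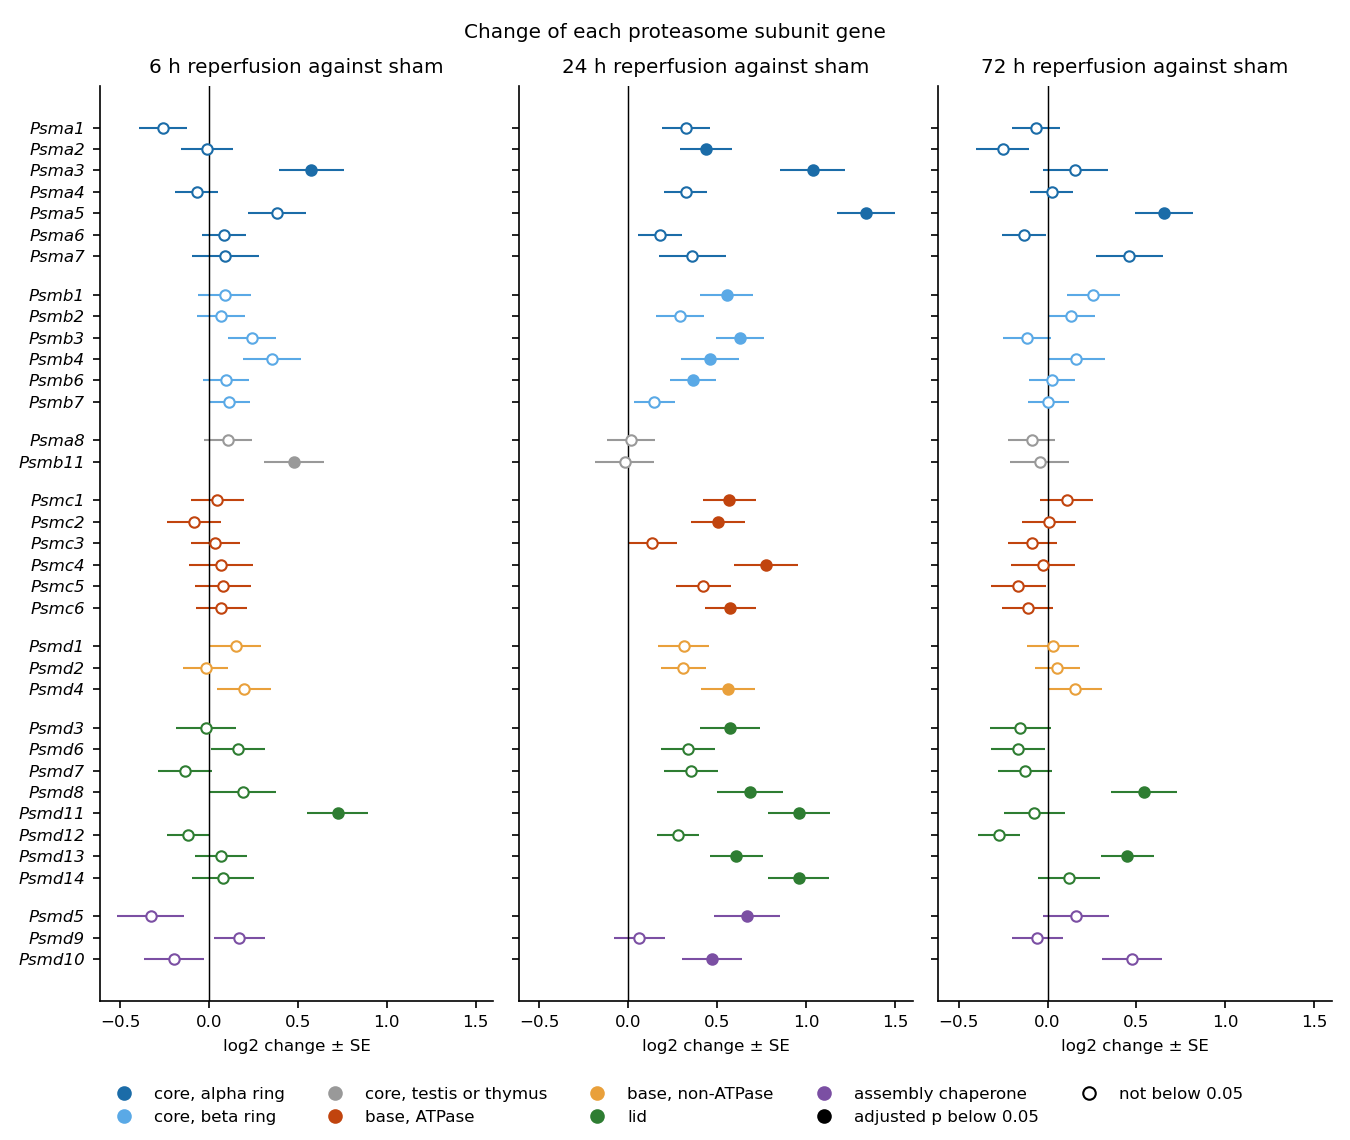
Log2 change of each of the 35 genes against sham with its standard error from limma, at 6, 24 and 72 h, ordered and coloured by role; filled points passed the adjusted threshold of 0.05. At 24 h 19 points are filled and 34 lie right of 0, while at 6 and 72 h 3 are filled.

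The size of the change depends on how the arrays are set on one scale, since the control probe sets themselves shifted. The hybridization spike-ins changed from sham by 0.22, -0.31 and -0.50 at 6, 24 and 72 h, the poly-A spike-ins by 0.34, 0.10 and -0.19, and the positive control median by -0.23, 0.21 and 0.04. At 24 h the number of members higher was 17 after quantile normalization and 15 after centring on array medians. It was 32 on the hybridization spike-ins, 8 on the poly-A spike-ins and 10 on the positive controls. Under each of these scalings 0 were lower. The share of all genes called under each of them is not given, here or for the other comparisons. The 13.8% of all genes higher at 24 h holds for the deposited scale only, so these counts cannot be set against it. The hybridization spike-ins moved the median change of all genes at 24 h to 0.24, and the positive controls moved it to -0.28. Relative to the median of all genes the members' median was 0.51 higher on the deposited scale, a gap that centring cannot change because it shifts all genes of an array alike, and 0.43 higher after quantile normalization. Under all 6 scales 8 genes stayed above the threshold at 24 h: Psma3, Psma5, Psmb3, Psmc4, Psmd8, Psmd11, Psmd13 and Psmd14. The change lay above 0 under all 6 scales for 29 of 35 genes, the exceptions being Psma6, Psmb7, Psmc3, Psmd9, Psma8 and Psmb11. At 6 h the split of 3 higher and 0 lower became 0 and 1 on the hybridization spike-ins, 0 and 4 on the poly-A spike-ins and 7 and 0 on the positive controls. The median change of all genes at 6 h on these 3 scales was -0.26, -0.37 and 0.20. Between 24 and 6 h the split of 17 and 1 became 3 and 5 on the positive controls. There the median change was -0.05 for the members and -0.49 for all genes, against 0.39 and -0.04 on the deposited scale. At 72 h against sham the hybridization spike-ins gave 21 higher and 0 lower, with a median change of 0.50 (0.40 for all genes), the poly-A spike-ins 5 and 0, the positive controls 2 and 0, and the array medians 1 and 1. Between 72 and 24 h the 15 lower became 4 on the hybridization spike-ins, 2 on the poly-A spike-ins and 9 on the positive controls. Between 72 and 6 h the hybridization spike-ins gave 30 higher and 0 lower and the poly-A spike-ins 18 and 0. The positive controls gave 0 and 18, and the array medians 1 and 6. In that order the members' median changes were 0.62, 0.43, -0.36 and -0.23. Those of all genes were close to them, at 0.66, 0.47, -0.33 and -0.195.

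**Figure D2:**
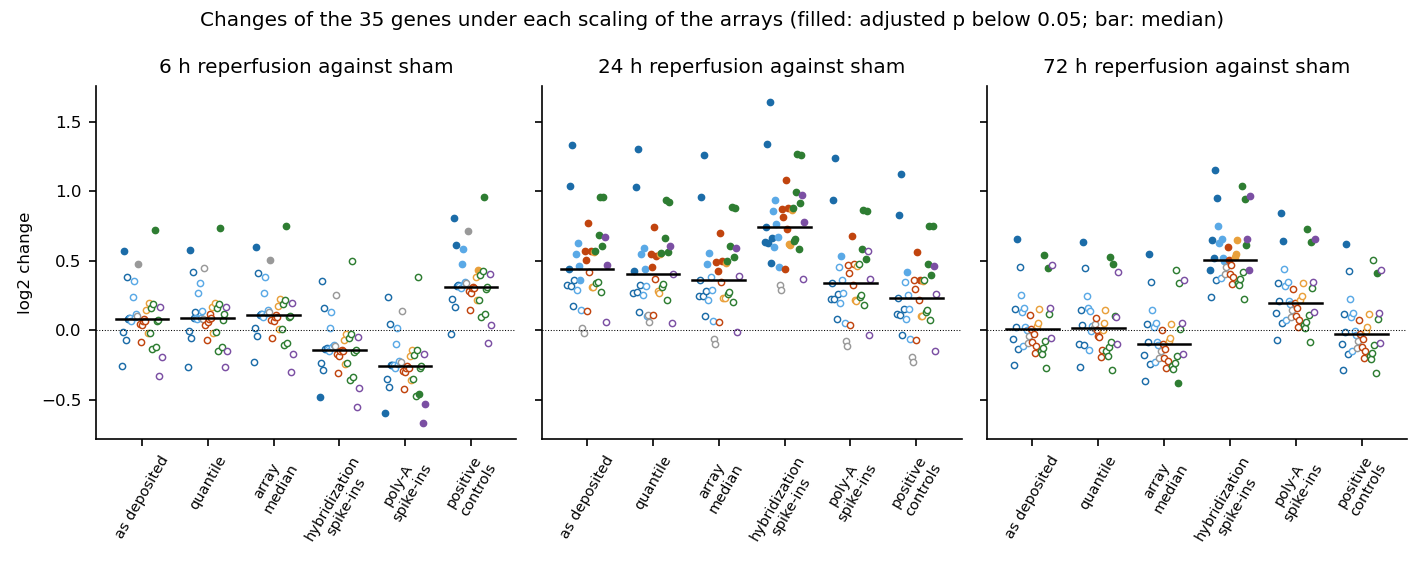
Log2 changes of the 35 genes against sham at 6, 24 and 72 h under the deposited scale and 5 other scalings, coloured by role as in the plot of changes by gene; filled points passed the adjusted threshold of 0.05 and bars are medians. At 24 h the medians run between 0.23 (positive controls) and 0.75 (hybridization spike-ins), and at 6 h both spike-in scalings put the median below 0.

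Among the alpha ring subunits, which form the gate of the core, 3 of 7 rose at 24 h and the median change was 0.36. Psma5 had signals of 10.49, 10.49, 10.01 and 10.49 at 6 h, and the change of 0.38 ± 0.16 from sham did not pass (limma adjusted p = 0.115). Its signals were 11.62, 11.43, 11.15 and 11.10 at 24 h, against 9.74, 9.99, 9.96 and 10.27 in sham. The lowest 24 h array stood clearly above the highest sham array. The change was 1.34 ± 0.16 (SE, 2.52-fold, limma adjusted p = 5.99e-06), the largest of the 35. At 72 h its signals were 10.55, 10.77, 10.47 and 10.78, still above every sham array, with a change of 0.66 ± 0.16 (limma adjusted p = 0.00633).

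Psma3 was one of the few members already higher at 6 h. Its signals were 11.52, 12.03, 11.47 and 11.55 at 6 h, against 11.02, 10.84, 11.04 and 11.38 in sham, so that the groups did not overlap. The change was 0.57 ± 0.18 (limma adjusted p = 0.0309). The call ended without sham replicate 2, 3 or 4 or 6 h replicate 8 (adjusted p up to 0.11). At 24 h the signals were 11.96, 12.07, 12.58 and 11.80 and the change 1.04 ± 0.18 (2.05-fold, limma adjusted p = 0.000267), while at 72 h the change was 0.16 ± 0.18. Psma2 also rose at 24 h, by 0.44 ± 0.15 (limma adjusted p = 0.0322), and this call ended when any of 6 arrays was left out. The other members of the ring, Psma1, Psma4, Psma6 and Psma7, had changes of 0.18 to 0.36 at 24 h that did not pass. Psma4 and Psma1 nonetheless had all 24 h arrays above all sham arrays.

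In the beta ring 4 of 6 genes rose at 24 h, with a median change of 0.41, and the 2 catalytic subunits measured were among the smaller changes. Over the 33 genes without Psma8 and Psmb11, those with a higher sham signal tended to change less at 24 h (Spearman correlation -0.49, Pearson -0.31). At 6 and 72 h the Spearman correlations were -0.36 and -0.32. The sham mean enters both the signal and the change, so no conclusion is drawn from the sign. Catalytic Psmb7 (sham mean 14.49) and inactive Psmb2 (14.59) both had high signals. The part of signal level in these differences was not tested. Psmb3, a subunit with no active site, had signals of 11.19, 11.03, 11.26 and 11.02 at 24 h, against 10.56, 10.34, 10.50 and 10.57 in sham. The groups were well apart, with a change of 0.63 ± 0.14 (limma adjusted p = 0.00153). Psmb1, likewise inactive, had 12.75, 12.46, 12.61 and 12.52 at 24 h, against 12.00, 12.05, 11.91 and 12.17 in sham, a change of 0.55 ± 0.15 (limma adjusted p = 0.00836). Psmb4, which in yeast helps partly built cores to join, changed by 0.46 ± 0.16 (limma adjusted p = 0.0415), and leaving out any of 8 arrays ended the call.

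Of the catalytic subunits, Psmb6 provides the caspase-like site and Psmb7 the trypsin-like site. Psmb6 had 13.24, 13.40, 13.40 and 13.06 at 24 h, against 12.94, 12.82, 13.01 and 12.87 in sham. Every 24 h array exceeded every sham array, though by as little as the step between 13.06 and 13.01, and the change of 0.36 ± 0.13 (limma adjusted p = 0.0437) lost its call without any of 12 arrays. Psmb7 had 14.62, 14.63, 14.74 and 14.54 at 24 h, against 14.52, 14.45, 14.47 and 14.49 in sham. The groups met almost without a gap, and its change of 0.15 ± 0.11 did not pass (limma adjusted p = 0.394). Psmb2, inactive in proteolysis, changed by 0.29 ± 0.13 without passing.

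Psma8 and Psmb11 replace a constitutive subunit in testis and thymus, and both lay below background in all 4 groups. Psma8 ranged between 3.62 and 4.15 over the 16 arrays. Psmb11 had 3.76, 3.44, 4.09 and 4.27 at 6 h, against 3.72, 3.29, 3.31 and 3.32 in sham, and limma gave a change of 0.48 ± 0.17 (adjusted p = 0.0483). The groups overlapped, and no fold is given for a probe set below background in both groups. This call counts as 1 of the 3 at 6 h, and Psmb11 is the single member lower at 24 h than at 6 h.

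Among the ATPases of the base, 4 of 6 rose at 24 h with a median change of 0.54, and 5 of 6 fell between 24 and 72 h on the deposited scale. None of these 5 falls passed on the hybridization or the poly-A spike-ins, where the changes were -0.27 to -0.61 and -0.18 to -0.52. Psmc4 had 13.34, 13.50, 13.32 and 12.73 at 24 h, against 12.67, 12.29, 12.13 and 12.69 in sham. Replicate 17 of the 24 h group came close to the 2 higher sham arrays while the other 24 h arrays stood well above. The change was 0.78 ± 0.18 (1.71-fold, limma adjusted p = 0.00302). Psmc6 had 13.22, 13.38, 13.44 and 13.08 at 24 h, against 12.83, 12.58, 12.65 and 12.78 in sham, a change of 0.57 ± 0.14 (limma adjusted p = 0.00532). Psmc1 changed by 0.57 ± 0.15 and Psmc2 by 0.51 ± 0.15 at 24 h, both past the threshold, and the Psmc2 call ended without sham replicate 3 or 24 h replicate 16. Psmc5 changed by 0.42 ± 0.16 (limma adjusted p = 0.0523). Psmc3 was the smallest, with 14.35, 14.08, 14.61 and 14.20 at 24 h, against 14.13, 14.17, 14.16 and 14.25 in sham. Its groups overlapped and the change of 0.14 ± 0.14 did not pass. At 6 and 72 h no ATPase gene passed against sham, with changes between -0.16 and 0.11.

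The 3 base subunits without ATPase activity bind ubiquitin or scaffold the particle, and 1 of them rose at 24 h. Psmd4, a ubiquitin receptor, had 12.26, 12.37, 12.54 and 11.89 at 24 h, against 11.54, 11.66, 11.82 and 11.79 in sham. The groups did not overlap and the change was 0.56 ± 0.15 (limma adjusted p = 0.00906). Psmd1, a scaffold, and Psmd2, which docks shuttle receptors, each changed by 0.31 at 24 h (SE 0.15 and 0.13) and did not pass, although their 24 h arrays too lay above all sham arrays.

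In the lid, which removes ubiquitin chains, 5 of 8 genes rose at 24 h, with a median change of 0.59. Psmd14, the deubiquitinase of the lid, had 10.29, 10.59, 10.14 and 10.47 at 6 h, overlapping sham, with a change of 0.08. It had 11.34, 11.64, 11.33 and 10.71 at 24 h, against 10.45, 10.28, 10.24 and 10.22 in sham. All 24 h arrays were above all sham arrays and the change was 0.96 ± 0.17 (1.94-fold, limma adjusted p = 0.000338). At 72 h it had 10.50, 10.17, 10.55 and 10.45, again overlapping sham, with a change of 0.12. Psmd7, the inactive partner of Psmd14 in the same dimer, changed by 0.35 ± 0.15 at 24 h (limma adjusted p = 0.101).

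Psmd11, a lid subunit that helps hold the lid to the core, had the largest change at 6 h, the first time measured. Its signals were 12.83, 13.05, 13 and 13.38 at 6 h, against 12.32, 12.39, 12.32 and 12.34 in sham. The change was 0.72 ± 0.17 (1.65-fold, limma adjusted p = 0.00483), and leaving out any 1 array gave adjusted p-values of 0.00139 to 0.0208. At 24 h the signals were 13.27, 13.80, 13.35 and 12.80, with a change of 0.96 ± 0.17 (limma adjusted p = 0.000334), and the step between 6 and 24 h did not pass (0.24 ± 0.17). At 72 h they were 12.22, 12.43, 12.22 and 12.21, which overlap sham. The fall between 24 and 72 h, -1.04 ± 0.17 (limma adjusted p = 0.000412), was the largest of the 35, and Psmd11 was also lower at 72 h than at 6 h by -0.80 ± 0.17 (adjusted p = 0.00149). On the hybridization and poly-A spike-ins the 6 h change was 0.50 and 0.39 and no longer passed (adjusted p = 0.0793 and 0.0847).

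Psmd8 and Psmd13 were the lid genes still higher at 72 h. Psmd13 had 14.17, 14.17, 13.77 and 14.11 at 72 h, against 13.58, 13.42, 13.59 and 13.83 in sham. Replicate 22 of the 72 h group fell below the highest sham array, and the change was 0.45 ± 0.15 (limma adjusted p = 0.035). Psmd8 had 12.54, 11.92, 11.71 and 12.33 at 72 h, against 11.70, 11.45, 11.38 and 11.81 in sham, a change of 0.54 ± 0.19 (limma adjusted p = 0.0422) with overlapping groups. Each of these 72 h calls ended without any of 6 arrays. At 24 h Psmd8 changed by 0.69 ± 0.19 and Psmd13 by 0.61 ± 0.15, both calls holding without any 1 array. Psmd3 rose by 0.57 ± 0.17 at 24 h (limma adjusted p = 0.0159), and leaving out sham replicate 3 or 24 h replicate 15 ended the call. Psmd6 and Psmd12 changed by 0.34 and 0.28 at 24 h and did not pass. Psmd12 had its 72 h arrays (13.57, 13.49, 13.43 and 13.42) all below its sham arrays (13.84, 13.60, 13.72 and 13.84), with a change of -0.27 ± 0.12 that did not pass (limma adjusted p = 0.116). Psma2 of the alpha ring was likewise below sham on all 72 h arrays, with a change of -0.25 ± 0.15 that did not pass.

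Psmd5, Psmd9 and Psmd10 carry subunit symbols but act as chaperones that assemble the base and leave the finished particle, and 2 of 3 rose at 24 h. Psmd5 had 9.57, 9.98, 9.79 and 9.30 at 24 h, against 8.84, 8.75, 9 and 9.37 in sham, a change of 0.67 ± 0.19 (limma adjusted p = 0.0112). Replicate 17 at 24 h lay just below the highest sham array. Between 24 and 6 h it changed by 1.00 ± 0.19 (limma adjusted p = 0.000461), the largest step of any member, its 6 h arrays (8.96, 8.59, 8.23 and 8.88) reaching lower than sham. Psmd10, also known as gankyrin, had 9.32, 8.98, 8.59 and 8.76 at 24 h and 8.81, 8.94, 9.05 and 8.87 at 72 h, against 8.56, 8.17, 8.41 and 8.63 in sham. Its 72 h arrays, unlike its 24 h arrays, were all above sham. The difference between 72 and 24 h was 0.01 ± 0.17, and the change from sham was 0.47 ± 0.17 at both times (limma adjusted p = 0.0473 at 24 h and 0.0519 at 72 h). Psmd10 was the single member higher at 72 h than at 6 h, by 0.67 ± 0.17 (limma adjusted p = 0.00502). Psmd9 lay near background, with 6.85, 6.70, 7.02 and 6.74 at 24 h, against 6.61, 6.93, 6.90 and 6.63 in sham, and a change of 0.06 ± 0.14.

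**Figure D3:**
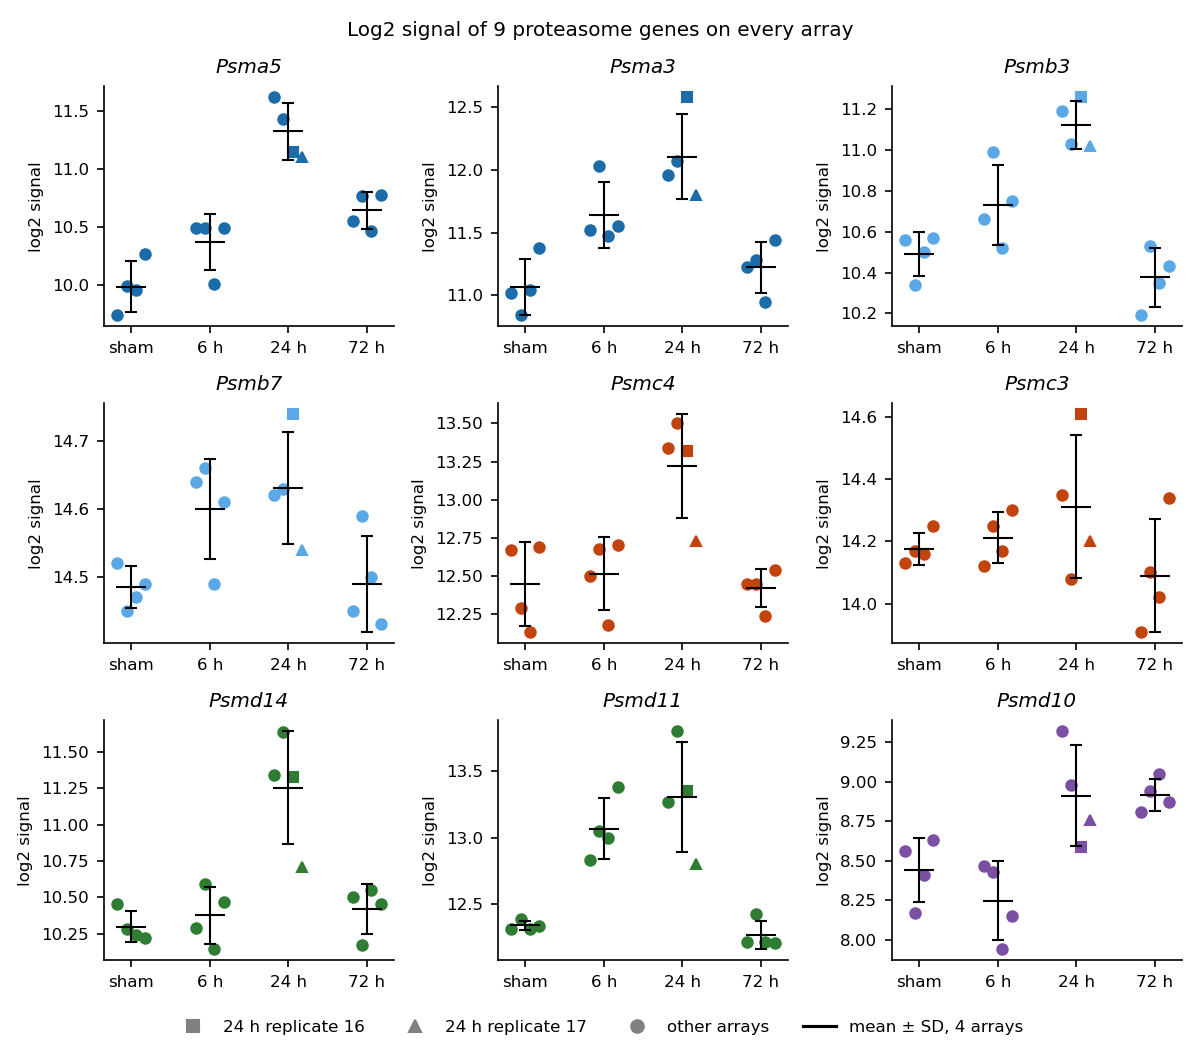
Log2 signal of 9 of the genes on every array of the sham, 6, 24 and 72 h groups (4 each), with group means and SD; colours give the role and the vertical scale differs between panels. Psma5, Psmb3, Psmc4 and Psmd14 are highest at 24 h on all 4 arrays, Psmd11 is high at both 6 and 24 h, Psmd10 is high at 24 and 72 h, and Psmb7 and Psmc3 overlap or nearly touch sham.

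Single arrays differed across many of the members at once. Averaged over the 33 genes, the change from the sham mean was 0.55, 0.56, 0.64 and 0.27 on the 24 h arrays, against -0.08 to 0.06 on the sham arrays. The 24 h arrays were all above sham, and replicate 17 was the lowest of them. On replicate 17 all 33 genes lay below their 24 h mean, by 0.24 on average, and that array also stood apart on the first principal component of all genes (10.77, the other 24 h arrays lying at 35.09 to 40.66). Replicate 16, with 29 of 33 genes above their group mean, had the highest atrial markers of the 16 arrays (mean log2 signal 11.30). That mean was 7.43 to 7.97 at 6 h, 7.78 to 7.89 on the other 24 h arrays and 7.84 to 8.62 at 72 h, against 7.69 to 8.07 in sham. On 24 h replicates 14, 15, 16 and 17 the monocyte and macrophage markers changed from sham by 2.537, 2.994, 3.471 and 1.845 on average. The neutrophil markers changed by 3.179, 4.868, 5.334 and 1.725. Both lists, like the 33 genes, were highest on replicate 16 and lowest on replicate 17. Fibroblast markers were highest on replicate 14 (1.491) and lowest on replicate 15 (0.718). The part of cell content in these array differences was not tested. Without replicate 17 the number of members higher at 24 h was 25, without replicate 16 it was 15, and without both it was 15, with 0 lower each time. At 6 h, replicate 10 had 31 of 33 genes below their group mean, by 0.21 on average, and the lowest positive control median of the 16 arrays (9.39). The median correlation between 2 members of their deviations from group means was 0.43 over the 16 arrays, a description of values that share array, scaling and RNA.

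**Figure D4:**
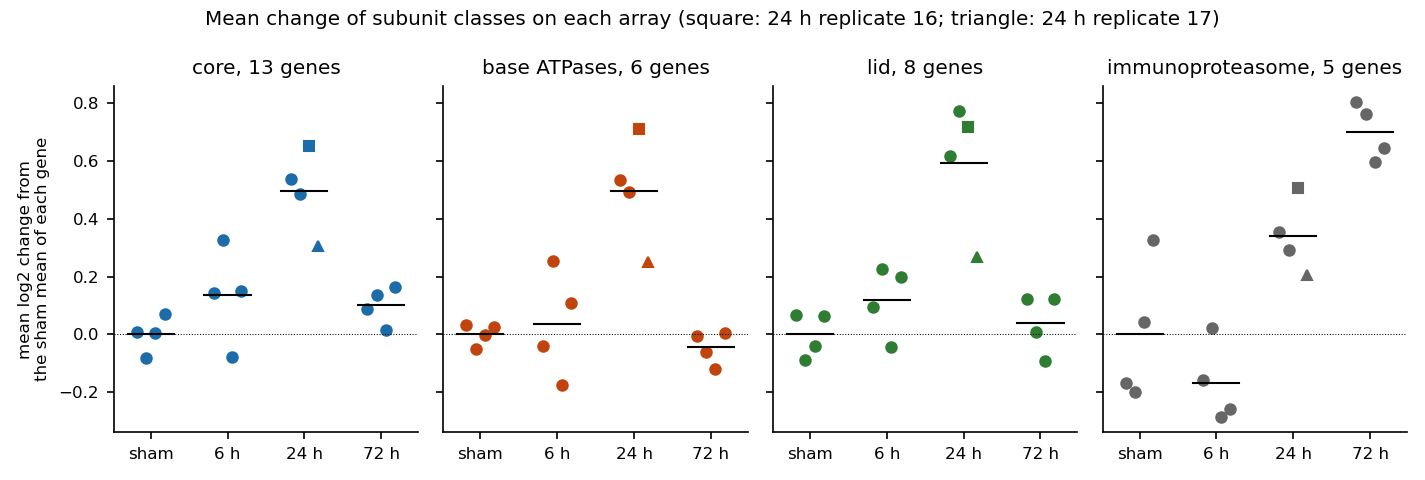
Mean log2 change from the sham mean over the genes of the core, the ATPases, the lid and the immunoproteasome, 1 point per array, with bars at group means. The 24 h arrays of the 3 constitutive classes lie above all sham arrays, with replicate 17 lowest, and the immunoproteasome mean is highest at 72 h (0.60 to 0.81).

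Signals of cell type markers also differed between groups. The 10 cardiomyocyte markers had group means above background in all 4 groups. Their summed signal, as log2, was 21.51 to 21.58, 21.17 to 21.46 and 21.31 to 21.52 at 6, 24 and 72 h, against 21.58 to 21.62 in sham, and 4 of 10 were lower at 24 h. Of 8 monocyte and macrophage markers, 7 were higher at 24 h and 7 at 72 h, the sum being 13.30 to 13.72, 14.48 to 16.19 and 15.92 to 16.72, against 12.77 to 13.04 in sham. Of 7 neutrophil markers, 6 were higher at 6 h, 7 at 24 h and 2 at 72 h, with sums of 10.63 to 13.50, 9.14 to 13.12 and 8.53 to 10.08, against 6.99 to 7.42 in sham, where all 7 were below background. Of 6 fibroblast markers, 2 were lower at 6 h, 4 were higher at 24 h and 6 were higher at 72 h (sums 16.69 to 17.02, 16.32 to 17.18 and 18.26 to 18.70, against 17 to 17.34 in sham). Of 5 markers of dividing cells, 4 were higher at 24 h and 5 at 72 h (sums 7.05 to 8.00, 8.82 to 10.64 and 11.18 to 12.59, against 7.22 to 9.09 in sham). The means of 5 of these 5 markers were below background at 6 h, 4 at 24 h and 3 at 72 h, against 4 in sham. Of 6 endothelial markers 2 were lower at each time and 1 was higher at 6 h. Of 6 pericyte and smooth muscle markers 2, 3 and 2 were lower at 6, 24 and 72 h and 1 was higher at 72 h. The part of these shifts in the proteasome changes was not tested. In bulk hearts, more cells of a type and more RNA per cell cannot be told apart.

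The immunoproteasome list holds Psmb8, Psmb9 and Psmb10, which replace the catalytic subunits, and Psme1 and Psme2, subunits of an activator cap. Of these 5 genes, 1 was lower at 6 h, 2 were higher at 24 h and 4 were higher at 72 h. Of all genes, 12.3% were lower at 6 h, 13.8% higher at 24 h and 11.5% higher at 72 h. The changes of the 5 genes ran between -0.626 and 0.012 at 6 h and between -0.355 and 1.005 at 24 h. The difference in time course from the constitutive genes was not tested. Psmb8 had 7.33, 7.78, 8.04 and 6.98 at 24 h and 8.06, 8.14, 7.61 and 8.08 at 72 h, against 6.34, 6.33, 6.71 and 6.73 in sham, where its mean was below background, so its change is set against an undetected signal. The limma changes were 1.44 ± 0.20 for Psmb8, 0.80 ± 0.26 for Psmb10 and 0.69 ± 0.16 for Psme2 at 72 h, with adjusted p of 2.65e-05, 0.033 and 0.0037. Different probe sets give no order of levels, so only shifts of their difference were tested. Within each array the difference Psmb10 minus Psmb7 was -6.19 to -5.79 at 72 h, against -7.26 to -6.03 in sham, a shift of 0.80 (exact permutation test, two-sided, p = 0.0571, adjusted over 6 tests 0.0857). Its shift was -0.20 at 6 h and 0.705 at 24 h (exact permutation p = 0.629 and 0.0857). Psmb9 minus Psmb6 shifted down by -0.72 at 6 h and -0.37 at 24 h, and up by 0.505 at 72 h (exact permutation p = 0.0571 each). The smallest p that 4 against 4 arrays allow is 0.0286, and none of the 6 tests of Psmb9 minus Psmb6 and Psmb10 minus Psmb7 passed after adjustment (lowest adjusted p = 0.0857). The mean of Psmb9 was below background at 6 h, at 24 h and in sham, so its differences at 6 and 24 h rest on an undetected signal in both groups, and that at 72 h in sham.

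Some genes that help or regulate the proteasome were higher and some lower at 24 h, as were 13.8% and 12.3% of all genes. Among genes above background these shares were 24.2% and 20.8%. Of the 5 chaperones that assemble the core, 1 was higher, Psmg4, with signals below background in all groups, and the list's median change was 0.17. Of 3 activators and inhibitors 0 were higher and 1 lower: Psme4, an activator that caps the core without ubiquitin, changed by -0.81 ± 0.20 (limma adjusted p = 0.00524). Of 6 deubiquitinases and partners 2 were higher and 1 lower, with Ecpas, a proteasome-binding scaffold, at -0.64 ± 0.13. Of 4 shuttle receptors, which carry ubiquitinated proteins to the proteasome, 2 were higher, with Rad23b at 0.72 ± 0.13 and Ubqln1 at 0.59 ± 0.15. Of 6 genes of the p97 segregase, 2 were higher and 1 lower, with the cofactors Faf2 at 0.77 ± 0.15 and Nsfl1c at 0.70 ± 0.13 against Faf1 at -0.63 ± 0.14. Uba6, a ubiquitin-activating enzyme, was higher at 24 h by 1.25 ± 0.15 (limma adjusted p = 5.4e-06) and at 72 h by 0.65 ± 0.15 (adjusted p = 0.00405).

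Of the 8 genes of the NRF1 pathway, 1 was higher and 1 lower at 24 h. These shares of 12.5% each lie near those of all genes (13.8% and 12.3%). At 6 h, 3 of the 8 were higher (37.5%) and 1 lower (12.5%), against 7.92% and 12.3% of all genes. Nfe2l1 itself had 15.62, 15.62, 15.23 and 15.79 at 24 h, against 16.24, 16.27, 16.13 and 16.13 in sham. It was lower than sham at all 3 times, by -0.47 ± 0.14 at 6 h, -0.63 ± 0.14 at 24 h and -0.45 ± 0.14 at 72 h (limma adjusted p = 0.0169, 0.00154 and 0.0227). NRF1 is controlled largely through its protein, which arrays do not measure. Maff and Mafk, small Maf partners of NRF1, had 7.25 to 7.88 and 7.48 to 7.80 at 6 h, against 3.76 to 4.62 and 5.26 to 5.79 in sham, where both were below background, and both passed at 6 h. Mafk was the gene called higher at 24 h, with means below background in both groups.

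The lid shares its architecture with the COP9 signalosome, of which 1 of 9 genes was higher at 24 h (Gps1, 0.90 ± 0.16), with a median change of 0.14. This is 11.1%, against 13.8% of all genes higher. The CCT chaperonin, a ring complex that folds actin and tubulin, was higher in 7 of 7 genes at 24 h, with a median change of 1.12. The mean of 1 of these genes was below background in all 4 groups. For 5 of the 7, all 24 h arrays lay above all sham arrays, which 12.9% of all genes did. Rises across most subunits of a complex were thus also measured outside the proteasome. Cct3 had 13.75, 13.96, 13.96 and 13.27 at 24 h, against 12.35, 12.08, 12.29 and 12.30 in sham, a change of 1.48 ± 0.16 (limma adjusted p = 1.49e-06). On the positive controls the COP9, core chaperone, NRF1, immunoproteasome and partner lists had median changes below 0 at 24 h, of -0.07, -0.04, -0.07, -0.01 and -0.11.

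**Figure D5:**
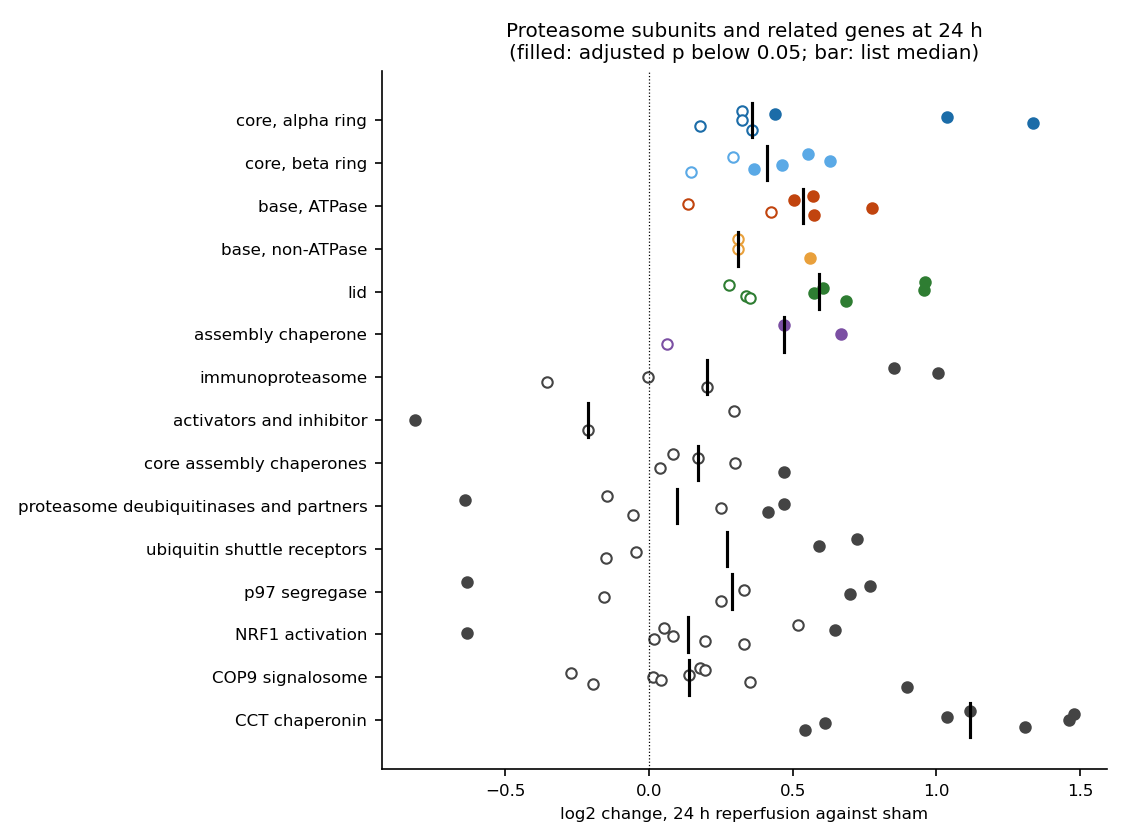
Log2 change at 24 h against sham for each gene of the proteasome classes and related lists; filled points passed the adjusted threshold of 0.05 and bars are list medians. The 6 constitutive classes have medians of 0.31 to 0.59, the CCT chaperonin 1.12, and the other 8 lists plotted -0.21 to 0.29.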

How the data were processed

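Values were the log2 signals that the authors deposited in one table of 16 arrays; the submitters' processing notes name Affymetrix Expression Console, with no version, normalization or log base. The log base was taken as 2, and since the highest value was 19.82, folds hold on the deposited scale. The design text names another array than the table's identifiers match, and the series title lists other hours than the labels, which were followed. Of 28846 probe sets 19572 had 1 symbol and 9274 none here, and the highest-mean probe set was kept for each of 19505 genes (55 genes had several). Array medians were 5.84 to 5.95, no 2 arrays were identical (highest correlation 0.9901), and no batch was given. The design text gives 4 heart samples per group and no more on their source, so p-values measure the spread between these samples.

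limma 3.58.1 in R 4.3.3 fitted group means over all 16 arrays, with empirical Bayes moderation and Benjamini-Hochberg adjustment over all genes; the script was tested on simulated data. No low-signal filter was used. Catalytic pairs were compared by exact permutation. Alternatives were other scalings, filters, weights and moderation, the 2 groups alone, other probe set rules and each array left out; positive control centring was added after seeing the data. All 35 members may be named, with array values for the leading genes of each class, and up to 3 genes of each other list. The members and lists were chosen with earlier results of these data known.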

Additional observations from a re-analysis of the deposited data

Results flagged for a closer look

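Single arrays that stood far from the other 3 of their group were found in 9 of 140 combinations of member and group, and chance alone gives about 1 in 20 such groups. At 6 h, Psma3 was 12.03 on replicate 8 (others 11.47 to 11.55), Psma5 was 10.01 on replicate 10 (others 10.49) and Psmd7 was 14.39 on replicate 10 (others 14.90 to 14.99). At 72 h, Psmc6 was 12.84 on replicate 20 (others 12.50 to 12.54), Psmd6 was 11.61 on replicate 23 (others 11.21 to 11.26), Psmd11 was 12.43 on replicate 21 (others 12.21 to 12.22) and Psmd13 was 13.77 on replicate 22 (others 14.11 to 14.17). Psmb11, below background, was 3.2 on replicate 20 at 72 h (others 3.42 to 3.44) and 3.72 on sham replicate 2 (others 3.29 to 3.32).

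By limma's test of the difference between times, the change from sham differed between 24 and 6 h for 18 of 35 members. It differed between 72 and 24 h for 15 and between 72 and 6 h for 3. Of all genes, 28.2%, 12.9% and 30.6% differed either way in these comparisons, in the same order.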

How the results depend on the processing

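The share of all genes called in each alternative setting is not given, so the counts below describe the members alone. The 19 members higher at 24 h against sham became 32 with hybridization spike-in centring and 8 with poly-A spike-in centring. They became 10 with positive control centring and 13 to 25 with 1 array left out. Without sham replicate 3 the number was 13. Without any single array 13 of the 19 calls held. At 6 h the 3 higher became 0 with either spike-in centring, 7 with positive control centring and 1 to 4 with 1 array left out, and the 0 lower became 1 with hybridization and 4 with poly-A spike-ins. At 72 h the 3 higher became 1 with median centring, 21 with hybridization spike-ins, 5 with poly-A spike-ins and 1 to 4 with 1 array left out, and the 0 lower became 1 with median centring.

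Between 24 and 6 h the 17 higher became 11 with median centring, 34 with hybridization spike-ins, 3 with positive controls, 11 in a fit of only the 2 groups, 11 without replicates 16 and 17, and 13 to 21 with 1 array left out. The 1 lower became 5 with positive controls and 0 with quantile normalization, either spike-in centring, both filters, the fit of 2 groups and the fit without replicates 16 and 17, and was 0 to 1 with 1 array left out. The median change of all genes between 24 and 6 h was 0.49 with hybridization spike-ins and -0.49 with positive controls. Between 72 and 24 h the 15 lower became 4 with hybridization spike-ins, 2 with poly-A spike-ins, 9 with positive controls and 11 to 18 with 1 array left out. Between 72 and 6 h the 1 higher became 30, 18 and 0 with the hybridization, poly-A and positive control centrings, 2 with quantile normalization, moderation with trend and array weights, 3 with either filter, and 1 to 3 with 1 array left out. The 2 lower became 6 with median centring, 0 with either spike-in centring, 18 with positive controls, and 1 to 3 with 1 array left out. The median change of all genes between 72 and 6 h was 0.66, 0.47 and -0.33 with the hybridization, poly-A and positive control centrings.

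With positive control centring the changes between 24 and 6 h turned to -0.052 for Psma4, -0.052 for Psmb3 and -0.044 for Psmd12. Psmb11 turned to 0.031 between 24 and 6 h and 0.196 between 72 and 6 h with hybridization spike-ins, and to 0.004 between 72 and 6 h with poly-A spike-ins. The filters test fewer genes and the fits of 2 groups use fewer arrays; the cause of the other shifts was not tested. No paired analysis was possible because the groups share no replicate numbers. Probe signals near background, as for Psmd9, Psma8 and Psmb11, limit what can be seen for those genes.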
